A study of Homo sapiens with 24 samples.

Results

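The HOX cluster genes encode the homeodomain transcription factors of 4 chromosomal clusters, HOXA, HOXB, HOXC and HOXD. They were taken as all symbols made of HOXA, HOXB, HOXC or HOXD and a number, which leaves out the antisense genes. The rule gave 39 members of 60641 gene symbols, 11 in HOXA, 10 in HOXB, 9 in HOXC and 9 in HOXD. The data were RNA-seq gene counts of 24 libraries of the human lung adenocarcinoma line A549 (9 libraries) and the human colorectal carcinoma line HCT116 (15 libraries). They belong to a study of human-specific lncRNAs, in which a DNA-binding domain (DBD) was deleted with CRISPR/Cas9 and the transcriptome compared with that of wild-type (WT) cells. In HCT116 and A549 the study's methods call the targets noncoding sequences transcribed in error, not human-specific lncRNAs.

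There were 8 groups of 3 libraries each. A549 had MSTRG.2513.6 KO (libraries S17, S18 and S19), MSTRG.4401.1 KO (S23, S24 and S25) and WT B (S20, S21 and S22). HCT116 had MSTRG.2513.6 KO (S8, S9 and S11), MSTRG.4401.1 KO (S10, S15 and S16), WT B (S12, S13 and S14), MSTRG.34636.7 KO (1A, 2A and 3A) and WT A (also numbered 1A, 2A and 3A). Names starting with MSTRG are those of assembled transcripts, and no gene of that form is listed in the count tables, so the deletions themselves were not checked here. No drug treatment was given in the labels, and the WT cells carried no deletion. Whether a KO is 1 clone, and whether replicates came from separate cultures, is not given in the sources used here, so p-values measure the spread between libraries, which may be technical. Each KO was compared with the WT libraries of its cell line in the same numbering series, because the labels do not pair them.

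HOX proteins specify position along the body axis in the embryo. The genes of a cluster lie in order: paralog groups 1 to 3 (anterior) act towards the head, groups 4 to 8 (central) in the trunk, and groups 9 to 13 (posterior) towards the tail, in the limbs and in the hindgut and urogenital tract. HOX proteins bind DNA together with the cofactors PBX and MEIS, retinoic acid and CDX factors act on the clusters, and Polycomb and MLL complexes keep them silent or active. Adult epithelia and the tumour lines derived from them keep a HOX pattern that differs with the site of origin. Of the members, 8 were anterior, 15 central and 16 posterior.

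On GRCh38 with GENCODE 44 annotation, the HOXA genes span chr7:27092993-27200091, the HOXB genes chr17:48528526-48728750, the HOXC genes chr12:53938831-54056030 and the HOXD genes chr2:176092721-176190907. Neighbouring HOX genes overlap. The exons of 8 members share bases with another member and those of 20 with an antisense gene, 24 members in all. HOXD10 and HOXD11 share 452 bases, HOXB3 and HOXB6 433, and HOXB3 and HOXB4 44. The library kit was strand-specific, but whether the counting used the strand is not given in the sources used here, so the division of reads between these genes is uncertain.

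Library totals ran from 25799359 to 102261808 counts, and S23, S24 and S25 had the fewest. Levels are given as counts relative to the library total (CPM), and 3 counts in a library corresponded to 0.0293 to 0.116 CPM. Such floors cover counting error only, since the reads carried no molecular identifiers. No replicate pair was a duplicate, the smallest chi-square of their counts being 19.5 per degree of freedom. Of 6 lung markers, 2 reached 1 CPM in A549 WT B and 3 in HCT116 WT B, and SCGB3A2 was at 0 in every group. NKX2-1, which defines lung epithelium, was at 0, 0 and 0.265 CPM in A549 WT B against 1.20 to 1.32 CPM in HCT116 WT B, so the lung label was not borne out by these markers. CDX2, which defines intestinal epithelium, was at 0.488 to 1.20 CPM in A549 WT B against 18.2 to 19.4 CPM in HCT116 WT B, while CDX1 was at 0 in both. The 8 colon markers did not all go that way: 2 reached 1 CPM in each WT B group and 1 in HCT116 WT A. CDH17, an intestinal cadherin, was at 5.21 to 7.77 CPM in A549 WT B against 0.482 to 0.687 CPM in HCT116 WT B.

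Libraries S8 and S9 went against their HCT116 label over the HOX genes. HOXA9 stood at 0.657 CPM in S8, 1.12 CPM in S9 and 60.1 CPM in S11, the other library of the same KO. HOXB4 stood at 0, 0 and 19.9 CPM, and HOXD10 at 2.2, 3.22 and 0.44 CPM, in S8, S9 and S11. Of the 15 HOX genes that differed between the 2 wild types, S8 and S9 were nearer to A549 WT B in 14 and S11 in 0. As a description in which genes are not replicates, log2(CPM + 1) of the 39 genes was correlated with the mean of each WT B group. A WT B library was left out of its own mean. For S8 and S9, r was 0.955 to 0.969 with the A549 WT B mean and 0.662 to 0.665 with the HCT116 WT B mean. For the other 13 HCT116 libraries r was 0.510 to 0.638 with the A549 WT B mean and 0.903 to 0.994 with the HCT116 WT B mean. Both stayed in the group that their labels give. Where results rest on them, the levels of named genes are given separately for S8, S9 and S11.

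**Figure D1:**
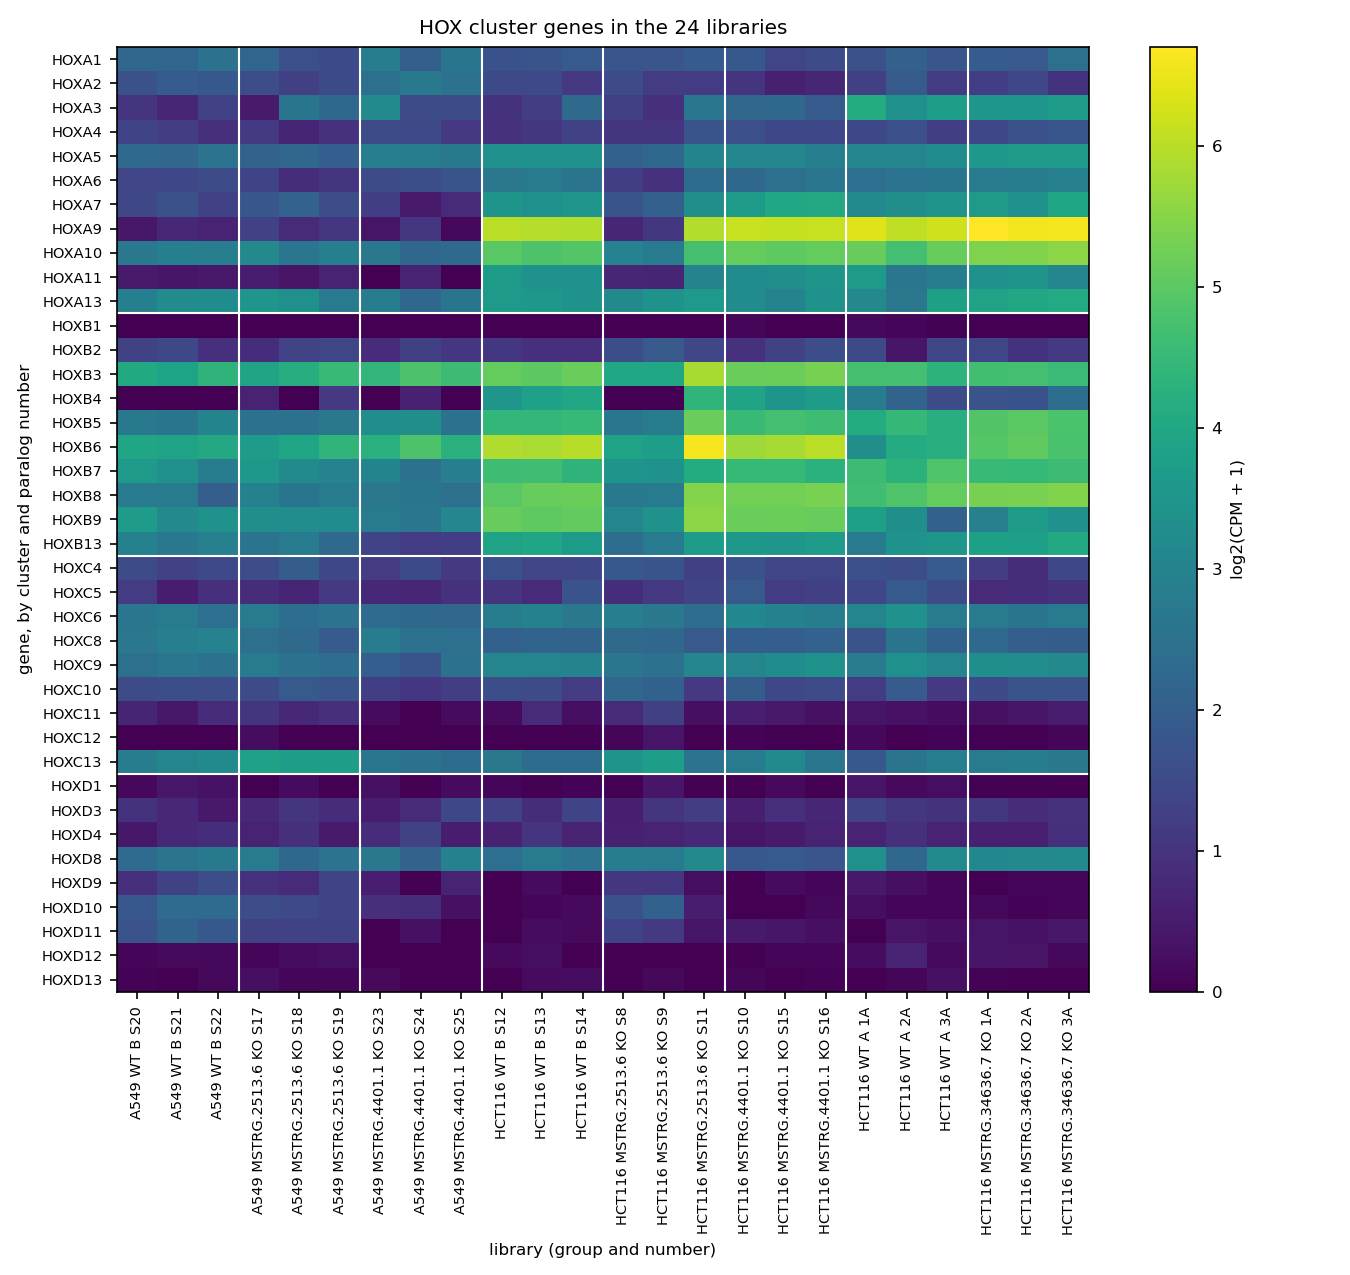
Level of the 39 HOX genes (vertical, by cluster and paralog number) in the 24 libraries (horizontal, by group), as log2(CPM + 1). The S8 and S9 columns, which carry the HCT116 label, are dark for HOXA9 and HOXB4, as the A549 columns are.

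The HOX genes were a small part of the transcriptome in both cell lines, and HCT116 held more of their RNA. Summed over the 39 members, the level was 142 ± 5.18 CPM for A549 WT B, 408 ± 3.67 CPM for HCT116 WT B and 331 ± 14.2 CPM for HCT116 WT A (SD, n = 3). In bulk samples, fewer cells of a type and less RNA per cell cannot be told apart. The HOXB cluster gave the largest sum in both WT B groups, 68.1 CPM for A549 against 229.9 CPM for HCT116. In HCT116 WT A it gave 129.9 CPM, below the 161.8 CPM of HOXA. The HOXA cluster gave 31.3 CPM in A549 WT B against 143.8 CPM in HCT116 WT B. The HOXC cluster gave 28.6 CPM in A549 WT B against 26.5 CPM, and the HOXD cluster 14.4 against 7.51 CPM.

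Of the 39 members, 27 reached a mean of 1 CPM in A549 WT B and 28 in HCT116 WT B. The 7 members below 1 CPM in every group were HOXB1, HOXC11, HOXC12, HOXD1, HOXD4, HOXD12 and HOXD13. Compared between genes as CPM per kilobase of exon, the highest level in A549 WT B was that of HOXB7, 5.88 ± 1.69, followed by HOXB6 at 5.61 ± 0.404 and HOXB9 at 3.78 ± 0.754 (SD, n = 3). HOXB7 and HOXB6 were not separated beyond their spread. HOXB5 (3.17), HOXC13 (3.06), HOXC9 (2.91), HOXC8 (2.55) and HOXA5 (2.40) followed, and of these steps only that from HOXC9 to HOXC8 was larger than the SD of both neighbours. In HCT116 WT B the order per kilobase was HOXB6 at 22.9 ± 1.06, HOXA9 at 20.3 ± 0.441 and HOXB7 at 14.8 ± 1.61, with HOXB8 at 13.9 ± 1.14 and HOXB9 at 12.8 ± 0.507 next. HOXB7 and HOXB8 were not separated beyond their spread. HOXB5 at 11.3 ± 0.248, HOXA10 at 7.88 ± 0.489 and HOXB4 at 6.41 ± 1.14 completed the first 8.

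The first comparison asked how the HOX pattern of the 2 wild-type cell lines differed. A gene was called when edgeR's quasi-likelihood test gave a Benjamini-Hochberg adjusted p (FDR) below 0.1 and the log2(fold change) was past 1 in either direction. In A549 WT B against HCT116 WT B, 34 members could be tested, of which 4 were called higher and 11 lower in A549. Over all 27882 genes tested, 17.2% were called higher and 18.5% lower. The 11 lower members were 5 of HOXA and 6 of HOXB, and the 4 higher ones were 3 of HOXD and 1 of HOXC. The median log2(fold change) over the tested members was -0.33, against -0.02 over all genes. An exact permutation test of 3 against 3 libraries cannot go below p = 0.1, so single genes were judged in the fit across all genes.

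Some posterior genes of HOXA and HOXD differed widely, in opposite directions. HOXA13 was not among them, with a log2(fold change) of -0.19 and an adjusted p of 0.26 in edgeR, and HOXD12 and HOXD13 were not tested. HOXA9, which acts in blood progenitors and limbs, stood at 0.357, 0.723 and 0.577 CPM in the A549 WT B libraries and at 63.1, 61.1 and 60.5 CPM in those of HCT116 WT B. The groups were far apart, and over all 9 A549 libraries HOXA9 ranged from 0.114 to 1.47 CPM, against 60.1 to 69.8 CPM in the 7 HCT116 libraries from S10 to S16. The log2(fold change) of A549 over HCT116 was -6.54 ± 0.19 (SE), with an adjusted p of 2.6e-07 by edgeR's quasi-likelihood test. HOXA11, which patterns the forearm and the uterus, stood at 0.391, 0.320 and 0.385 CPM against 11.5, 9.72 and 9.47 CPM. Its groups did not overlap either, with a log2(fold change) of -4.54 ± 0.19 and an adjusted p of 1.3e-06.

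HOXD10 and HOXD11, which pattern the distal limb, went the other way. HOXD10 stood at 2.55, 4.04 and 4.11 CPM in A549 WT B against 0, 0.0623 and 0.133 CPM in HCT116 WT B, a log2(fold change) of 5.93 ± 0.61 with an adjusted p of 0.00012. HOXD11 stood at 2.31, 3.43 and 2.62 CPM against 0, 0.171 and 0.116 CPM, a log2(fold change) of 5.02 ± 0.64 with an adjusted p of 0.00038. Both were near the floor of a few counts in HCT116 and above it in every A549 WT B library. HOXD9, their neighbour, stood at 0.900, 1.45 and 1.97 CPM against 0, 0.140 and 0 CPM, with a log2(fold change) of 5.02 ± 0.91 and an adjusted p of 0.0023.

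The upstream sequences of these 4 genes are shown because they marked the line difference in opposite directions. They are the 250 bases before the transcription start in RefSeq on GRCh38.p14, printed 5′ to 3′ on the strand of the gene, with CG dinucleotides in capitals. HOXA9 is at chr7:27165538-27165787 and HOXA11 at chr7:27185233-27185482, both on the minus strand. HOXD10 is at chr2:176116528-176116777 and HOXD11 at chr2:176107030-176107279, both on the plus strand. The windows of HOXA9, HOXD10 and HOXD11 lie inside the annotated spans of those genes, which include longer transcripts.
HOXA9: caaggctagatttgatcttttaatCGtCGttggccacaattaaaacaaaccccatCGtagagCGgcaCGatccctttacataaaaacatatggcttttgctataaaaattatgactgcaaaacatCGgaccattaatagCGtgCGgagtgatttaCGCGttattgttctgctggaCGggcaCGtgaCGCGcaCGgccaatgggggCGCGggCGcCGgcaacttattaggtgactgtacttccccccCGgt
HOXA11: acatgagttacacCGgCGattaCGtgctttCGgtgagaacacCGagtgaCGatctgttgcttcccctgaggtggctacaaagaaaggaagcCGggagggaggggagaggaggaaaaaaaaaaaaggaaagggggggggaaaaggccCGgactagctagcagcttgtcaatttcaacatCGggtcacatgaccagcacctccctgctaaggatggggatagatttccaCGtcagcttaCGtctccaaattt
HOXD10: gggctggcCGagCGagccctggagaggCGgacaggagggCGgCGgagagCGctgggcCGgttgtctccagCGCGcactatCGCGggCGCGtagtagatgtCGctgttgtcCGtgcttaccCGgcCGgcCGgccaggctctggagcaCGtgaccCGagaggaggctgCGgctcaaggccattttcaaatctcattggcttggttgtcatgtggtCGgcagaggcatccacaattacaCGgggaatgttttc
HOXD11: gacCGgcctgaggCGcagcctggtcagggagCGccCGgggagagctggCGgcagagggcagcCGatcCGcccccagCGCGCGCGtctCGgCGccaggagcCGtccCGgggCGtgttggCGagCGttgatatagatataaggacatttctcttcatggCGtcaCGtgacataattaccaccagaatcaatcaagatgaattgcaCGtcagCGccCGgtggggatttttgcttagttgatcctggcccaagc

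The windows of HOXD10 and HOXD11 each hold 23 CG dinucleotides, that of HOXA9 holds 20 and that of HOXA11 holds 11. Over the 27 windows matched to 20 members the median was 19, against 11 over all promoters of the table, while the median GC content was 58.8% against 58.0%. The letters TATAAA, searched on both strands, are in the HOXA9 window, in 5 of the 27 member windows (18.5%) and in 10.7% of all windows. TTTATG, the site preferred by CDX factors, is in the HOXA9 window, in 3 of the 27 (11.1%) and in 9.64% of all. It overlaps the reverse of TATAAA in its first 5 letters. AGGTCA, the nuclear receptor half-site bound by retinoic acid receptors, is in 0 of the 27 and in 12.1% of all.

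In the central part of the clusters, HOXB4 had the plainest contrast. This regulator of blood stem cells was at 0 counts in all 3 A549 WT B libraries and stood at 10.4, 13.2 and 14.9 CPM in HCT116 WT B. Against a floor of 3 counts per library it was at least 222-fold higher in HCT116. HOXB8, a central gene of the trunk, stood at 5.62, 5.82 and 3.06 CPM against 30.5, 34.3 and 35.8 CPM, with no overlap and a log2(fold change) of -2.51 ± 0.26. HOXB6, another central gene of the trunk, stood at 14.7, 13.5 and 15.6 CPM against 59.4, 56.8 and 62.3 CPM, with no overlap and a log2(fold change) of -1.76. HOXA7 stood at 1.70, 2.17 and 1.52 CPM against 10.02, 9.35 and 10.3 CPM, a log2(fold change) of -2.19. HOXA10, a posterior gene, stood at 5.43, 6.37 and 6.30 CPM against 31.0, 27.4 and 29.3 CPM, a log2(fold change) of -2.02. Neither gene's groups overlapped. The other genes called lower in A549 had log2(fold changes) of -1.57 (HOXB5), -1.49 (HOXB9, posterior), -1.35 (HOXA6) and -1.05 (HOXB7). The call of HOXB7 was lost without S22, at -0.81, and without S13, at -0.98. The one HOXC gene called was HOXC8, a trunk gene, at 5.32, 6.26 and 6.91 CPM in A549 WT B against 3.26, 3.44 and 3.41 CPM, a log2(fold change) of 1.12 ± 0.14 with an adjusted p of 0.00031.

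**Figure D2:**
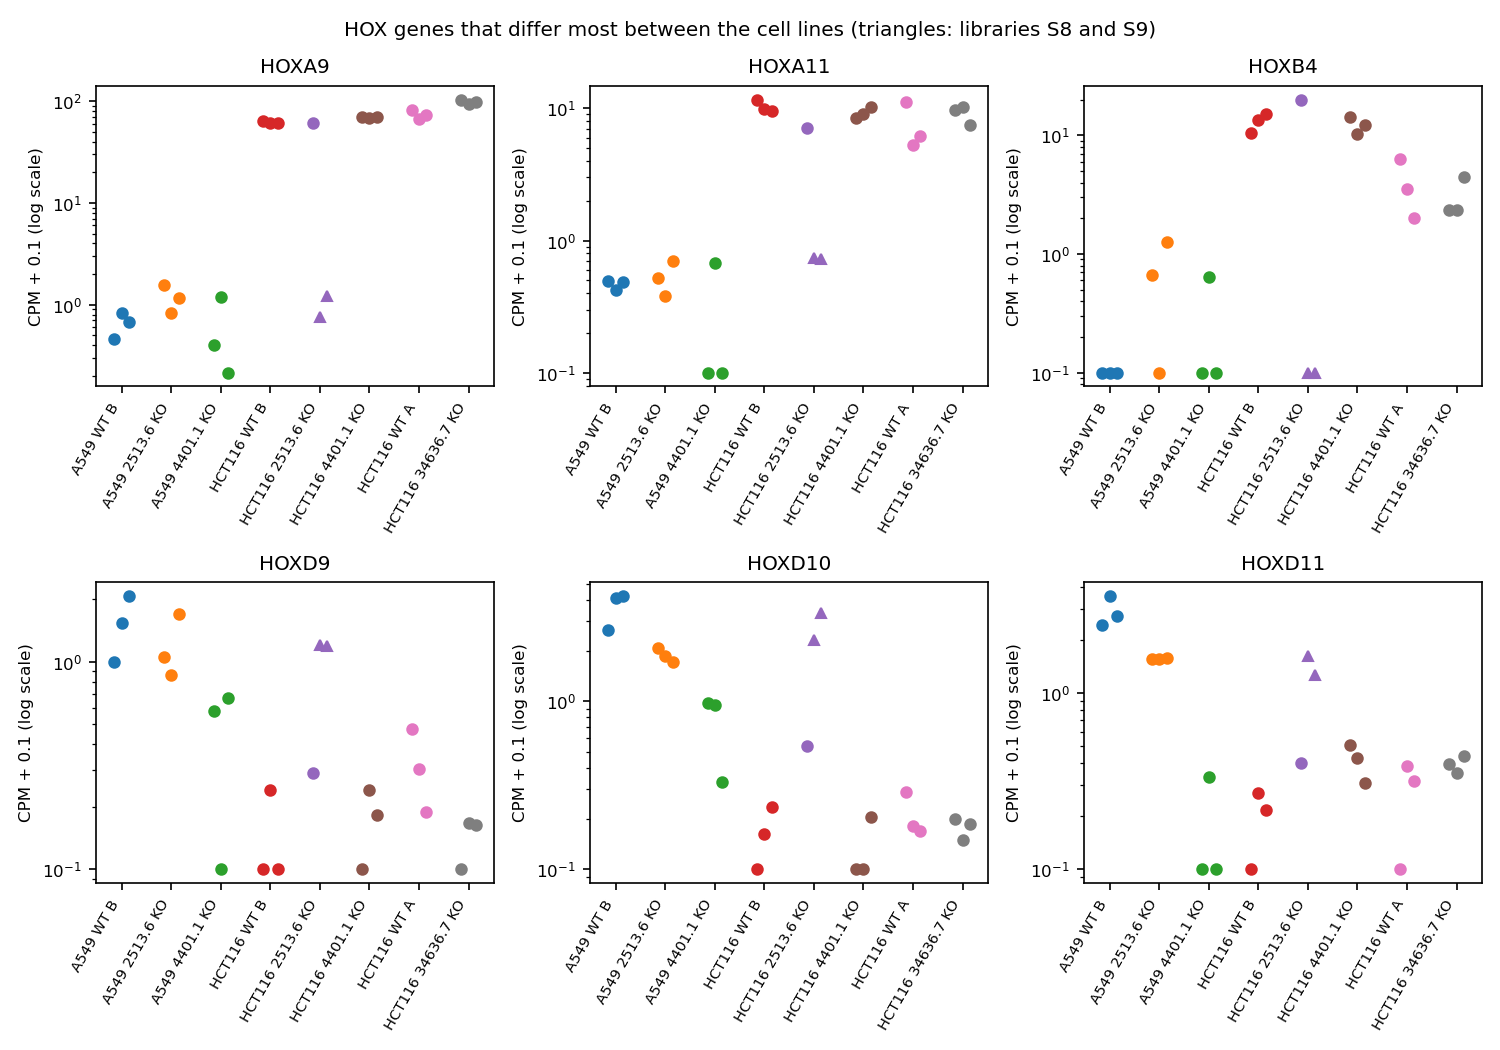
CPM + 0.1 on a log axis of 6 HOX genes in the 8 groups, with 1 point per library and triangles for S8 and S9. Between the wild types, HOXA9, HOXA11 and HOXB4 are lower in A549 and HOXD9, HOXD10 and HOXD11 higher, while HOXD11 in A549 MSTRG.4401.1 KO (0, 0.233 and 0 CPM) is as low as in HCT116.

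Genes around the HOX pathway were read from fixed lists. Of 18 antisense genes tested, 5 were higher and 6 lower in A549, among them HAGLR next to HOXD1 at a log2(fold change) of 3.41 and HOXA10-AS at -3.54. Among the cofactor genes, PBX3 (1.33) was higher and PBX4 (-1.13) lower, and MEIS1 had 0 counts in the 13 libraries labelled HCT116 other than S8 and S9. Of 12 upstream regulators tested, the retinoic acid receptor gene RARB (5.51) and the retinoic acid hydroxylase gene CYP26A1 (3.28) were higher and CDX2 (-4.38) was lower. Of 10 genes flanking the clusters, 2 were higher and 1 lower, SKAP1 beside HOXB at -6.85.

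The second comparison asked which HOX genes changed with the MSTRG.4401.1 deletion in A549, and 5 of the 6 genes called lower were posterior ones. Of 33 members tested in A549 MSTRG.4401.1 KO against A549 WT B, 1 was called higher and 6 lower, against 11.1% higher and 4.32% lower over all 24979 genes. The median log2(fold change) was -0.40 over the members and 0.12 over all genes. Of the 13 posterior genes tested, all 13 had a negative log2(fold change), with a median of -0.74, and 5 were called lower. All 13 were negative under TMM, RLE and upper-quartile normalization and in DESeq2. Of the 6 anterior genes tested 5 were positive, with a median of 0.45 and 1 called higher, and the 14 central genes were divided 7 and 7, with 1 called lower.

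HOXD11 was at or near 0 in the KO. It stood at 0, 0.233 and 0 CPM in S23, S24 and S25, from 0, 6 and 0 counts, and at 2.31, 3.43 and 2.62 CPM in WT B. The groups were apart, with a log2(fold change) of -5.30 ± 0.80 and an adjusted p of 0.0026 by edgeR's quasi-likelihood test. HOXD10, which shares exon bases with it, stood at 0.873, 0.853 and 0.229 CPM against 2.55, 4.04 and 4.11 CPM. Every KO library was below every WT library, with a log2(fold change) of -2.52 ± 0.43 and an adjusted p of 0.0040. HOXD9 stood at 0.482, 0 and 0.572 CPM against 0.900, 1.45 and 1.97 CPM, also without overlap, with a log2(fold change) of -2.06 ± 0.75 and an adjusted p of 0.064. Its call was lost without S23 (-2.36, adjusted p = 0.11 in edgeR), without S21 (-2.06, 0.14) and without S22 (-1.84, 0.14).

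Outside HOXD, HOXB13 had the firmest fall. HOXB13, the most posterior gene of its cluster and a prostate and hindgut factor, stood at 1.60, 1.24 and 1.37 CPM in the KO and at 6.64, 5.41 and 6.57 CPM in WT B. The groups were widely apart, with a log2(fold change) of -2.22 ± 0.22 and an adjusted p of 0.00038 in edgeR. HOXC11, which acts in hindlimb and kidney patterning, was low throughout, at 0.151, 0 and 0.152 CPM against 0.628, 0.353 and 0.818 CPM, with a log2(fold change) of -2.56 ± 0.77 and an adjusted p of 0.034. HOXD11, HOXD10, HOXB13 and HOXC11 kept their calls when each library was left out in turn.

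The one central gene called was HOXA7, a trunk patterning gene. It stood at 1.36, 0.388 and 0.724 CPM in the KO against 1.70, 2.17 and 1.52 CPM, with a log2(fold change) of -1.20 ± 0.43 and an adjusted p of 0.061 in edgeR. The highest KO library lay just below the lowest WT library, and the call was lost without S24 (-0.88), S25 (-1.15), S20 (-1.21) or S21 (-1.07). HOXA3, an anterior gene of the pharyngeal arches, was the one called higher, at 8.01, 1.94 and 1.87 CPM against 1.04, 0.639 and 1.44 CPM. S23 stood well above the other KO libraries, and the log2(fold change) of 1.84 ± 0.58 (adjusted p = 0.039) became 0.79 without S23 (adjusted p = 0.16) and 1.57 without S21 (adjusted p = 0.13), both in edgeR. In one fit of all A549 libraries it was 1.83 and not called (adjusted p = 0.11 in edgeR). HOXA2, a hindbrain and second-arch gene, stood at 4.55, 5.50 and 4.73 CPM against 2.19, 2.89 and 2.60 CPM, without overlap, with a log2(fold change) of 0.87 that was short of the fold threshold and an adjusted p of 0.014. With upper-quartile normalization it reached 1.04 and was called.

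Among posterior genes short of the fold threshold, HOXC13, a hair and nail factor, had a log2(fold change) of -0.71 with an adjusted p of 0.017 in edgeR. HOXA13, a distal limb and hindgut gene, had -0.72 with 0.034, HOXB9, a thoracic patterning gene, had -0.74 with 0.043, and HOXA10, a uterine and limb gene, had -0.54 with 0.062. The summed level of the HOXD cluster was 8.39 CPM in the KO against 14.4 CPM in WT B, and that of HOXC 20.5 against 28.6 CPM, while the sum over all 39 members was 135 ± 6.63 CPM against 142 ± 5.18 CPM (SD, n = 3). Upper-quartile normalization moved the median of all genes from 0.12 to 0.28 and the calls over all genes from 2764 higher and 1078 lower to 3872 and 789, with 2 members higher and 6 lower.

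In the same KO, 1 of 15 antisense genes tested was called, HOXA-AS2, whose exons share bases with HOXA3. It stood at 25.2, 25.5 and 25 CPM against 9.34, 11.4 and 13 CPM, with no overlap and a log2(fold change) of 1.10. Of 8 cofactor genes and 8 flanking genes tested, edgeR called 0 and 0, with 3 and 2 at an unadjusted p below 0.05, and DESeq2 also called none. Of 12 upstream regulators, CYP26B1, which breaks down retinoic acid, rose from 20.2, 22.3 and 23.1 CPM in WT B to 56.5, 61.2 and 66.2 CPM, a log2(fold change) of 1.41. CYP26A1 (-1.75) and CDX2 (-3.43) fell. Mitochondrially encoded genes took 6.10% ± 2.30 of the counts in these KO libraries and 2.12% ± 0.221 in WT B (SD, n = 3), and the summed level of 3 epithelial markers was 6306 to 8295 CPM against 3823 to 4199 CPM. Their part in the HOX differences was not tested.

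In HCT116, fewer HOX genes were called with the deletion named MSTRG.4401.1. Of 32 members tested in HCT116 MSTRG.4401.1 KO against HCT116 WT B, 0 were called higher and 1 lower, against 0.996% and 1.62% over all 26615 genes. The median log2(fold change) was 0.04 over the members and 0.00 over all genes, and 4 of the 11 posterior genes tested were negative, with a class median of 0.15. HOXA2 was the one called, at 1.05, 0.492 and 0.640 CPM in the KO against 1.79, 1.78 and 1.15 CPM in WT B. The groups were apart by a small margin, with a log2(fold change) of -1.11 ± 0.34 and an adjusted p of 0.080 in edgeR. The call was lost without S15 (-0.90), S16 (-1.01), S12 (-1.02) or S13 (-0.996).

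HOXD8, a trunk and gut gene, stood at 2.54, 2.72 and 2.40 CPM in the same KO against 4.5, 5.75 and 4.87 CPM in WT B. The groups did not overlap, and the log2(fold change) of -0.997 missed the fold threshold, with an adjusted p of 0.0078 in edgeR. HOXA7 stood at 11.7, 14.9 and 15.5 CPM against 10.02, 9.35 and 10.3 CPM, higher in every KO library, with a log2(fold change) of 0.49 and an adjusted p of 0.039. Of the 15 antisense genes tested edgeR called 0, with 1 at an unadjusted p below 0.05, and DESeq2 called 0. Of 11 flanking genes edgeR and DESeq2 called 0, with 5 at an unadjusted p below 0.05. CYP26A1 was called higher with a log2(fold change) of 1.30, at 0.54, 0.89 and 1.20 CPM in the KO against 0.36, 0.41 and 0.28 CPM in WT B.

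**Figure D3:**
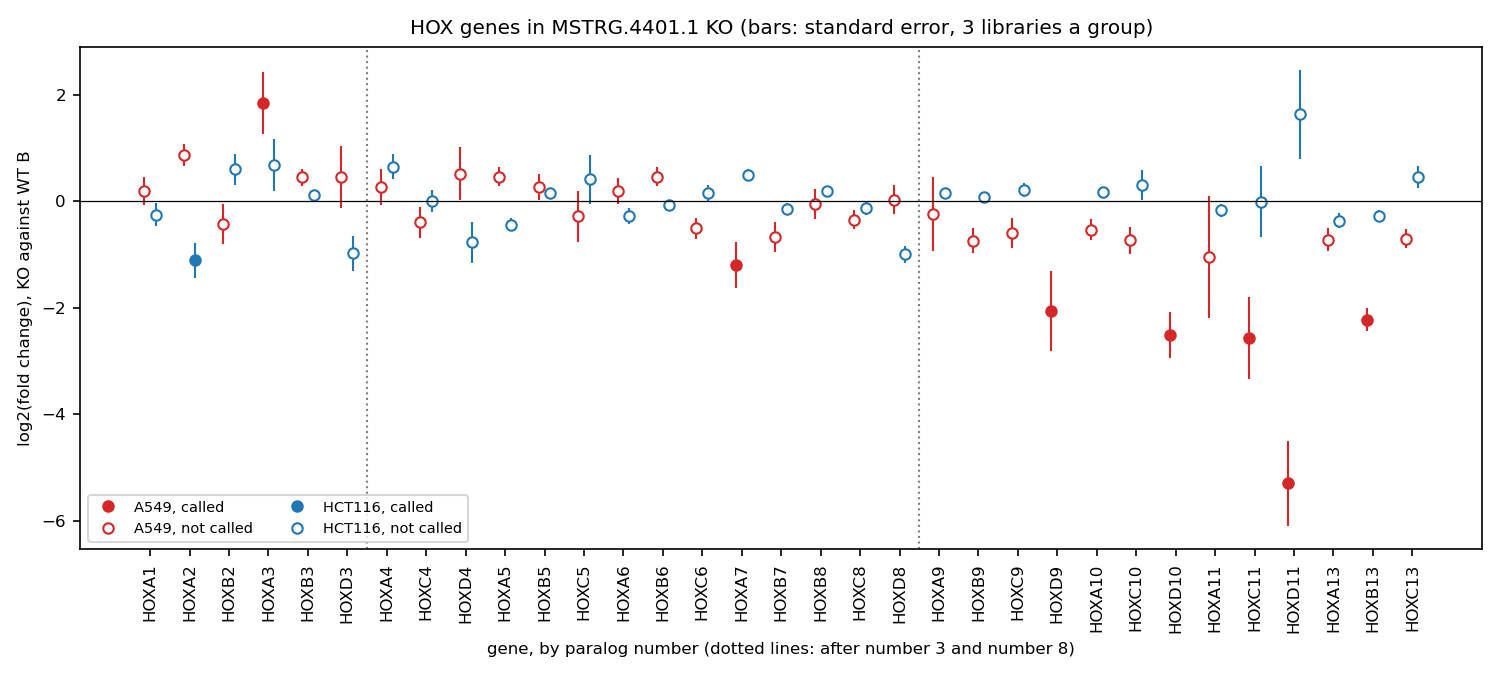
log2(fold change) ± SE of the 33 HOX genes tested in A549, for MSTRG.4401.1 KO against WT B in A549 (red) and HCT116 (blue), ordered by paralog number with dotted lines between anterior, central and posterior genes. Filled points are called. To the right of the second dotted line all 13 red points are below 0, and HOXD9 and HOXD10 have no blue point.

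The difference of the effect between the cell lines was tested directly as an interaction over 12 libraries, with 35 members tested and 14 called at FDR < 0.1 (5 higher and 9 lower in A549), against 26.9% of all 30134 genes in either direction. All 13 posterior genes tested had a negative difference, with a median of -1.08, and 7 were called. HOXB13 differed by -1.97 ± 0.23 on the log2 scale (SE), with an adjusted p of 0.00018 in edgeR's interaction test. HOXD11 differed by -6.97 ± 1.24 with an adjusted p of 0.0024, although its level in HCT116 was near the floor. HOXC13 differed by -1.19 ± 0.27 with an adjusted p of 0.0083. Among the anterior and central genes, HOXA2 differed by 1.94 ± 0.39 with an adjusted p of 0.0051 and HOXA7 by -1.70 ± 0.43 with 0.015. All 5 kept their calls in the 12 fits that left out a library each. The other genes called were HOXB4 (6.14), HOXD8 (0.998), HOXA5 (0.87) and HOXB6 (0.49) with positive differences, and HOXC10 (-1.08), HOXB9 (-0.85), HOXC9 (-0.85), HOXA10 (-0.73) and HOXC6 (-0.69) with negative ones. Of the lists, 2 of 18 antisense, 3 of 9 cofactor, 5 of 12 upstream and 4 of 11 flanking genes were called.

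The third comparison asked about MSTRG.2513.6 KO in A549, and few HOX differences were seen. Of 33 members tested in A549 MSTRG.2513.6 KO against A549 WT B, edgeR called 0 higher and 0 lower, against 1.13% and 1.79% over all 25666 genes. At an unadjusted p below 0.05 there were 6, with the share of all genes at that threshold not given here, and DESeq2 also called 0. The median log2(fold change) was -0.02 over the members and -0.03 over all genes. HOXC13 stood at 13.2, 12.3 and 12.6 CPM in the KO and at 6.06, 7.48 and 8.11 CPM in WT B. The groups did not overlap, with a log2(fold change) of 0.82 ± 0.14 and an adjusted p of 0.023, so it was short of the fold threshold alone.

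HOXD10 stood at 1.97, 1.76 and 1.60 CPM in this KO, below the 2.55 to 4.11 CPM of WT B, with a log2(fold change) of -0.99 ± 0.23 and an adjusted p of 0.068 in edgeR. HOXD11 stood at 1.46, 1.45 and 1.48 CPM, below the 2.31 to 3.43 CPM of WT B, with a log2(fold change) of -0.93 ± 0.22 and an adjusted p of 0.069. Both A549 KOs were set against the same WT B libraries. HOXB4, at 0 counts in A549 WT B, had 36, 0 and 54 counts in S17, S18 and S19, or 0.563, 0 and 1.16 CPM, and was not tested. HOXA3 stood at 0.407, 5.08 and 3.70 CPM in this KO, a spread wider than in WT B and overlapping it. Of the 18 antisense genes tested, HAGLR was called lower, at 0.955, 1.38 and 1.35 CPM against 3.43, 4.37 and 3.03 CPM, with a log2(fold change) of -1.57, while of the 8 cofactor, 12 upstream and 8 flanking genes tested edgeR called 0, with 2, 2 and 1 at an unadjusted p below 0.05, and DESeq2 called 0.

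In HCT116, the libraries of MSTRG.2513.6 KO differed from each other as described above for S8 and S9. Of 33 members tested in HCT116 MSTRG.2513.6 KO against HCT116 WT B as labelled, edgeR called 0 higher and 0 lower, against 0.660% and 0.273% over all 26374 genes. At an unadjusted p below 0.05 there were 8 members, and the share of all genes at that threshold is not given here. DESeq2 called 4 higher and 0 lower, against 8.5% and 1.98% over all genes in DESeq2. Without S8 and S9, S11 was the only library left in this KO group, so no calls are given for that fit. Without S11, 7 of 34 were called higher and 12 lower, against 17.1% and 20.1% over all 28577 genes.

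HOXA11 stood at 0.636 CPM in S8, 0.621 CPM in S9 and 6.96 CPM in S11, the last below the 9.47 to 11.5 CPM of HCT116 WT B. HOXC13 stood at 10.1 and 12.2 CPM in S8 and S9, against 4.87 CPM in S11, while A549 libraries with the same deletion ranged from 12.3 to 13.2 CPM. MEIS1, the HOX cofactor at 0 in the other HCT116 libraries, stood at 4.70 and 5.68 CPM in S8 and S9. CDX2 stood at 0.636 and 0.406 CPM in them and at 18.2 CPM in S11. The summed level of the 39 members was 138 to 496 CPM within this group. The antisense gene HOXA-AS3 was called lower, at 2.61, 1.93 and 2.83 CPM in S8, S9 and S11 against 14.1, 13.3 and 12.2 CPM in WT B, with a log2(fold change) of -2.23, and S11 was as low as the other libraries. Of 7 cofactor, 12 upstream and 11 flanking genes tested edgeR called 0, with 3 of each at an unadjusted p below 0.05, and DESeq2 called 2 of each.

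The 2 HCT116 wild types also differed from each other in the HOX genes. Of 31 members tested in HCT116 WT A against HCT116 WT B, 1 was called higher and 3 lower, against 3.16% and 3.90% over all 27280 genes. The 3 lower genes were all of HOXB. HOXB6 stood at 8.87, 16.3 and 17.7 CPM in WT A and at 59.4, 56.8 and 62.3 CPM in WT B, far apart, with a log2(fold change) of -2.07 ± 0.25 and an adjusted p of 0.0015 in edgeR. HOXB9 stood at 12.7, 9.19 and 3.20 CPM against 34.2, 31.6 and 33.3 CPM, with no overlap, a log2(fold change) of -2.01 ± 0.41 and an adjusted p of 0.021. HOXB4 stood at 6.22, 3.40 and 1.92 CPM against 10.4, 13.2 and 14.9 CPM, with a log2(fold change) of -1.76 ± 0.39 and an adjusted p of 0.030. Its groups were apart, but without S14 the value was -1.65 and the call was lost (adjusted p = 0.10 in edgeR). It was also lost in one fit of all HCT116 libraries, at -1.75 (adjusted p = 0.67 in edgeR).

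HOXA3 went the other way, at 16.5, 9.21 and 12.3 CPM in WT A against 0.973, 1.31 and 3.94 CPM in WT B. The log2(fold change) was 2.60 ± 0.52, with an adjusted p of 0.019 in edgeR and no overlap. The antisense gene HOXB-AS4 stood at 0, 0 and 0.0196 CPM in WT A and at 2.50, 1.93 and 2.74 CPM in WT B. Of 7 cofactor, 12 upstream and 11 flanking genes tested between the wild types edgeR called 0, with 2, 3 and 4 at an unadjusted p below 0.05, and DESeq2 called 0. The levels of the called HOX genes were divided in the same way across the numbering series: HOXB9 ranged from 3.20 to 12.7 CPM in the 6 libraries numbered 1A to 3A and from 31.6 to 45.8 CPM in the 7 HCT116 libraries S10 to S16. HOXB4 ranged from 1.92 to 6.22 against 10.1 to 19.9 CPM, HOXB6 from 8.87 to 32.4 against 51.8 to 96.2 CPM, and HOXA3 from 9.21 to 16.5 against 0.973 to 5.23 CPM. Of the 39 members, 1 was higher and 4 lower in every library of the first series than in every one of the second. The share of all genes divided in this way was not computed, so these counts do not set the HOX genes apart from other genes. The series and the 2 wild types cannot be told apart.

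**Figure D4:**
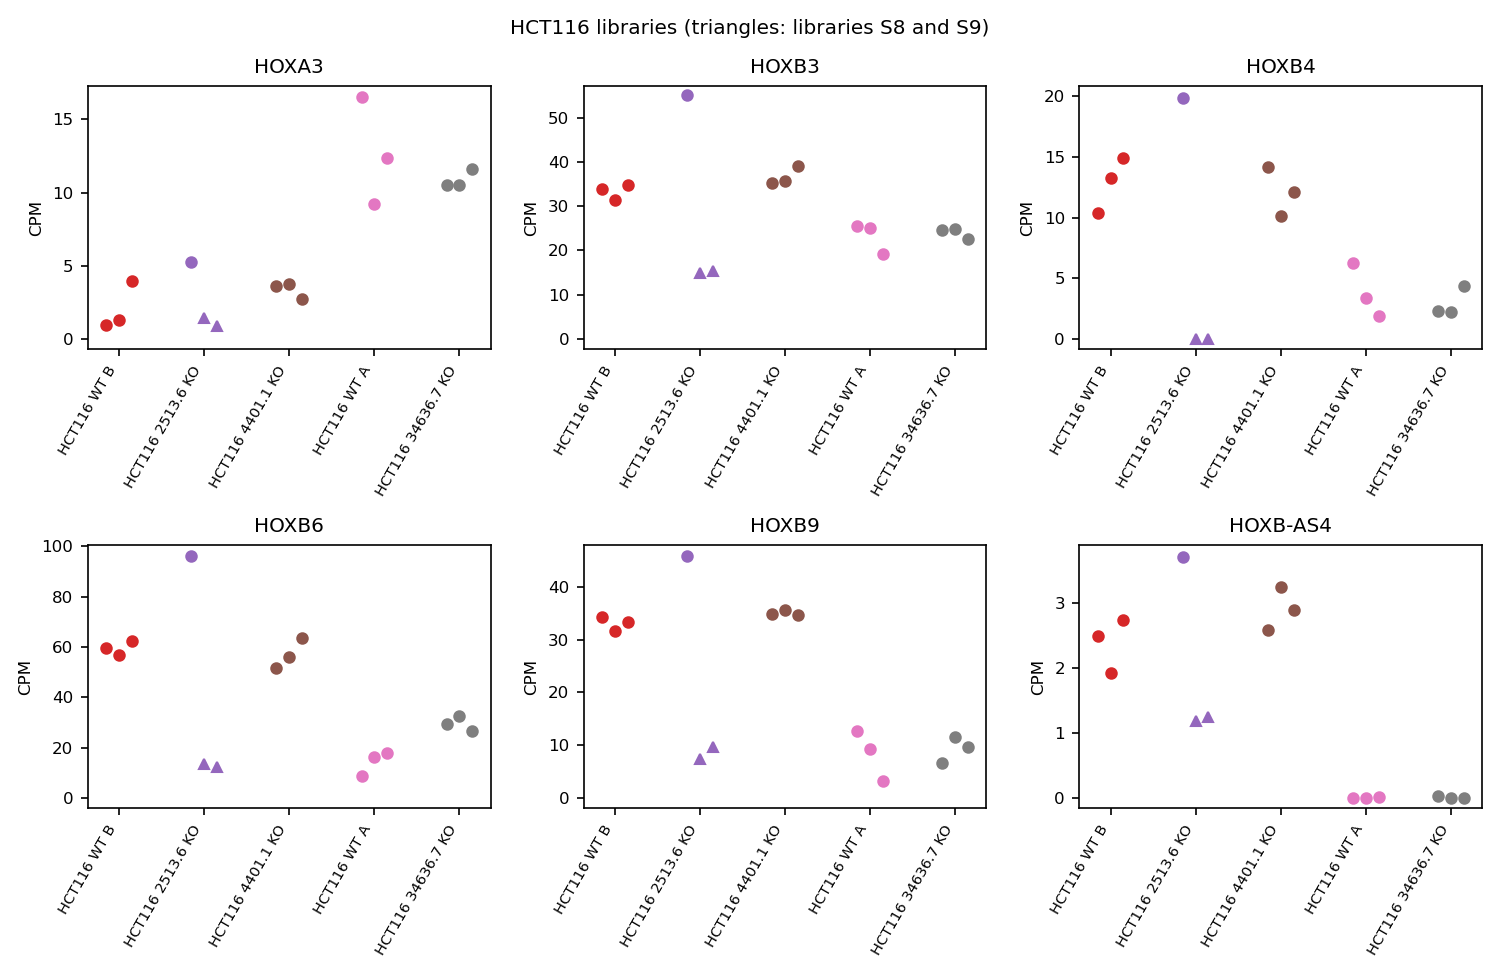
CPM of 5 HOX genes and HOXB-AS4 in the 5 HCT116 groups, 1 point per library, with triangles for S8 and S9. HOXA3 is higher and HOXB3, HOXB4, HOXB6, HOXB9 and HOXB-AS4 are lower in the libraries numbered 1A to 3A, KO and WT A alike, than in S10 to S16.

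The last comparison asked about MSTRG.34636.7 KO against WT A. Of 33 members tested in HCT116 MSTRG.34636.7 KO against HCT116 WT A, 0 were called higher and 1 lower, against 0.729% and 0.607% over all 28816 genes. The median log2(fold change) was 0.26 over the members and -0.02 over all genes, and 11 of 12 posterior genes tested were positive, with a median of 0.37. HOXC5, a central gene, was the one called, at 0.775, 0.838 and 0.981 CPM in the KO and at 1.71, 2.73 and 1.88 CPM in WT A. The groups did not overlap, with a log2(fold change) of -1.27 ± 0.27 and an adjusted p of 0.088 in edgeR. The call was lost without any 1 of the KO libraries (-1.19, -1.24 and -1.41 without 1A, 2A and 3A) and without WT A 3A (-1.32), and the log2(fold change) was -0.66 against WT B. With the replicate number as a block it was -1.26, with an adjusted p of 0.18.

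HOXB5, a lung and gut mesenchyme gene, stood at 28.3, 30.5 and 27.0 CPM in the KO against 16.3, 20.9 and 17.4 CPM in WT A, above it in every library, with a log2(fold change) of 0.65 and an adjusted p of 0.083 in edgeR. HOXB6 stood at 29.5, 32.4 and 26.5 CPM against 8.87, 16.3 and 17.7 CPM, also without overlap, with a log2(fold change) of 1.03 and an adjusted p of 0.12. HOXA9 stood at 103, 94.2 and 97.5 CPM against 81.9, 65.9 and 73.5 CPM, above every WT A library. The sum over the members was 422 ± 6.23 CPM in the KO and 331 ± 14.2 CPM in WT A (SD, n = 3). Of 14 antisense, 8 cofactor, 12 upstream and 11 flanking genes tested edgeR called 0, with 2, 2, 1 and 2 at an unadjusted p below 0.05, and DESeq2 called 0.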

How the data were processed

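The data were RNA-seq gene counts of 24 libraries. Per the submitters' processing notes and the study's methods, reads were trimmed with Trim Galore 0.6.6, checked with FastQC 0.11.9, aligned to GRCh38 with HISAT2 2.2.1 and quantified with StringTie, and the authors deposited whole-number counts per gene symbol, neither normalized nor pooled. The annotation used for counting is not given in the sources used here. The 3 symbols listed in 6 libraries only were left out.

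From these counts, each comparison was fitted separately on all genes with edgeR 4.0.16 (R 4.3.3, limma 3.58.1): filterByExpr, TMM, glmQLFit, glmQLFTest and Benjamini-Hochberg adjustment. Genes were called at FDR < 0.1 and |log2(fold change)| > 1, after the study's methods, and interactions at FDR < 0.1. Counts at an unadjusted p below 0.05 come without the share of all genes at that threshold, so no excess can be read from them. CPM used library totals alone, with no TMM factor, so they need not match the fitted fold changes exactly. Library depth ranged from 25799359 to 102261808 counts. Tests were checked on simulated counts. Gene positions came from GENCODE 44 and promoter sequences from RefSeq.

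The members, gene lists and tests were chosen with earlier results of these data known. Members were named when called in a KO comparison, between the HCT116 wild types or in the interaction, when among the 8 highest per kilobase in A549 WT B or HCT116 WT B, or when among the 8 largest called differences between the cell lines in a direction, with at least 1 CPM in the higher line and no overlap. Other members with values, such as those short of the fold threshold, were chosen after their values were seen. The alternatives were DESeq2 1.42.0, other normalizations, filters and thresholds, joint fits, the other wild type, the replicate number as a block and leaving out each library. Replicate numbers shared by 1A to 3A did not pair the libraries.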

Additional observations from a re-analysis of the deposited data

Results flagged for a closer look

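The effect of MSTRG.4401.1 KO differed between A549 and HCT116 for 14 HOX genes in edgeR's interaction test, each value being the log2(fold change) in A549 minus that in HCT116. Posterior genes had negative differences: HOXD11 -6.97, HOXB13 -1.97, HOXC13 -1.19, HOXC10 -1.08, HOXB9 -0.85, HOXC9 -0.85 and HOXA10 -0.73. The calls of HOXC10 and HOXC9 held in 7 and 2 of the 12 fits that left out a library each, and those of the other 5 in all 12. HOXA7 (-1.70), HOXA2 (1.94) and HOXA5 (0.87) were also called in all 12.

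The remaining 4 rested on fewer fits. HOXD8 differed by 1.00 (6 of 12 fits), HOXC6 by -0.69 (4 of 12) and HOXB6 by 0.49 (4 of 12). HOXB4 differed by 6.14 and was called in 3 of 12. It was at 0 counts in every A549 WT B library, so this value depends on the fitted prior and is no bound, and without S24 it was 0.10.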

How the results depend on the processing

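Of 658 values of single HOX genes under the alternatives, 566 kept direction and call, 92 kept direction and lost the call, and 0 changed direction. Alternatives that changed only a threshold reused the reported fit, so direction could not change in them. Dropping the fold threshold could not lose a call. Outside the interaction there were 28 called results, and 35 calls were lost in a few of them. These were HOXA3, HOXA7 and HOXD9 in A549 MSTRG.4401.1 KO, HOXA2 in HCT116 MSTRG.4401.1 KO and HOXC5 in MSTRG.34636.7 KO. HOXB4 between the HCT116 wild types and HOXB7 between the cell lines also lost calls, and the cause was not tested. Counts of HOX genes called follow, with the reported one in parentheses. Without a fold threshold the A549 KOs gave 3 of 33 for MSTRG.2513.6 (0), with 5.97% of all genes called, while MSTRG.4401.1 gave 18 of 33 (7), with 43.7% of all genes called. The HCT116 KOs gave 5 of 32 for MSTRG.4401.1 (1) and 2 of 33 for MSTRG.34636.7 (1), against 16.3% and 2.15% of all genes, and the cell lines 23 of 34 (15), against 62.9%. At FDR < 0.05 both of these HCT116 KOs gave 0 and the interaction 8 (14), against 1.81%, 0.503% and 19.75% of all genes. DESeq2 gave 4 for HCT116 MSTRG.2513.6 (0) and 2 for MSTRG.34636.7, against 10.5% and 3.08% of all genes. One fit of all libraries of a line gave 7 of 35 for HCT116 MSTRG.2513.6, against 11.6% of all genes, and 0 for each of the other HCT116 KOs. In HCT116 MSTRG.4401.1 and MSTRG.34636.7 KO that fit called only 0.0900% and 0.300% of all genes. That fit gave 6 of 35 for A549 MSTRG.4401.1 (HOXA3 lost) and 3 of 35 for WT A against WT B (HOXB4 lost). Over all genes the shares were 14.1% and 5.37%. With S8 and S9 left out of that fit, chosen after seeing the data, MSTRG.4401.1 gave 0 and MSTRG.34636.7 gave 2. Of all genes, 1.25% and 2.7% were called. Upper-quartile normalization and no filter each gave 0 for MSTRG.34636.7. Against the other wild type there was 1 for HCT116 MSTRG.2513.6, while MSTRG.4401.1 gave 6 and MSTRG.34636.7 gave 4. The shares of all genes in these fits are not given here, so no excess of HOX genes can be read from them. With the replicate number as a block, MSTRG.34636.7 gave 0, WT A against WT B 4 and the cell lines 15, again without the shares of all genes. Same-numbered libraries had correlations of deviations from -0.0651 to 0.0339, so they share a number and no pairing was shown.

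Leaving out 1 library at a time, the A549 KOs gave 0 to 2 for MSTRG.2513.6 and 4 to 7 for MSTRG.4401.1. The HCT116 KOs gave 0 to 19 for MSTRG.2513.6 (19 without S11), 0 to 3 for MSTRG.4401.1 and 0 to 2 for MSTRG.34636.7. The wild types of HCT116 gave 3 to 4, the cell lines 16 to 18 and the interaction 8 to 15. Without S11, 37.2% of all genes were called in HCT116 MSTRG.2513.6 KO. The shares of all genes in the other fits are not given here. No excess or lack of HOX genes can therefore be read from these ranges. Over all genes, DESeq2 called 2243 higher and 521 lower in HCT116 MSTRG.2513.6 KO against 174 and 72 in edgeR, and upper-quartile normalization changed the interaction from 3490 higher and 4626 lower to 4642 and 3729. Depth limits the genes near the floor, such as HOXC11, HOXD9 and HOXD11 in the A549 MSTRG.4401.1 KO libraries.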
